A study of Mus musculus with 12 samples.

Results

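The genes described here are 36 mouse genes of intestinal stem cells and of Wnt signalling, read by symbol from the count table of each library, out of 55304 gene symbols in all. By role they were 15 stem cell markers, 4 receptors, 5 feedback inhibitors, 2 genes for β-catenin and its destruction complex, 3 nuclear factors and 7 other Wnt target genes. Of the 36 genes, 33 passed the filter on low counts and were tested, while Notum, Lef1 and Sp5 had too few reads. The question was how these genes stood in colonic epithelium after intestinal deletion of Ehf, an epithelial transcription factor of the ETS family, in a series on EHF and tumours that start from Apc loss.

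The 12 mice, 4 in each of 3 groups, were C57BL/6 animals of 6 weeks, and total RNA of their isolated colonic epithelium was sequenced. Ehf IKO mice were labelled as intestinal knockouts of Ehf, carried the source prefix EVCER and were given tamoxifen. Control TMX mice were labelled wild-type, had the source VilCreER and were given tamoxifen; the design text names them Villin CreERT2 mice, added to account for effects of tamoxifen. Control OIL mice carried the EVCER prefix as well, were labelled wild-type and were given sunflower oil. CreERT2 is a Cre recombinase that tamoxifen activates, and in Villin CreERT2 mice the Villin promoter directs it to gut epithelial cells. The labels do not spell out the EVCER prefix or name the deleted exons. Ehf IKO thus differed from Control OIL in both genotype label and tamoxifen, and from Control TMX in genotype label and source line.

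In the colonic crypt, Wnt ligands bind Frizzled receptors and the coreceptors Lrp5 and Lrp6, and this keeps β-catenin from being degraded by the complex that holds Apc and Axin. β-Catenin then enters the nucleus and activates genes with TCF and LEF factors, and this signal maintains the Lgr5-positive stem cells at the crypt base. R-spondin bound to Lgr4 or Lgr5 strengthens the signal by clearing Rnf43 and Znrf3, the ubiquitin ligases that remove Frizzled receptors. Several of the genes that Wnt activates, such as Axin2, Rnf43, Znrf3, Nkd1 and Notum, restrain it in turn.

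Promoter windows of 300 bases, 250 before and 50 after an annotated start, were taken from RefSeq (GRCm38.p6) and held 24 of the 36 genes in 36 windows. The TCF/LEF core, spelt CTTTGA and read from the other strand as TCAAAG, was in 11.1% of these windows, those of Lef1, Prom1, Sp5 and Tnfrsf19, and in 16.0% of all 32851 windows. An ETS motif in the fixed spelling CGGAAG, read from the other strand as CTTCCG, was also in 11.1%, those of Fzd5, Rnf43, Tcf7 and Tert, and in 16.9% of all windows. The shorter letters GGAA within that spelling were not counted, and the Cdca7 window holds them. A match is a description of these letters and not a binding site. The 4 windows below are those of Cdca7, the 1 gene of the set past the threshold, and of Rnf43, Fzd5 and Prom1. The latter are the genes named by the rule for values in every library whose window held either spelling, and Tnfrsf19 falls outside that rule. They run 5′ to 3′ on the strand of the gene, with matches in capitals. Cdca7 had no match to either full spelling, and for Prom1 and Rnf43 the window shown is 1 of 2.
Cdca7, chr2:72475969-72476268, plus strand: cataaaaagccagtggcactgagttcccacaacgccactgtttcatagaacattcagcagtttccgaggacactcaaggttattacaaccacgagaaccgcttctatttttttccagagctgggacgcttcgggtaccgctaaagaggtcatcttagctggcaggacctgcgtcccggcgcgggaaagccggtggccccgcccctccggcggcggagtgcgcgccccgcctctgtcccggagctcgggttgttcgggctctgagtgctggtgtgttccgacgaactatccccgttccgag
Rnf43, chr11:87699647-87699946, plus strand: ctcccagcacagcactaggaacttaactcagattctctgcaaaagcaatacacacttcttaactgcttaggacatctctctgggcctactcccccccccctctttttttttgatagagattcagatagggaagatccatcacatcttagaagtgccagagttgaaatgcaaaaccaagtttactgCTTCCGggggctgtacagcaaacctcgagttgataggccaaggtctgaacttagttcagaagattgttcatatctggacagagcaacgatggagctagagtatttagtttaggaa
Fzd5, chr1:64737701-64738000, minus strand: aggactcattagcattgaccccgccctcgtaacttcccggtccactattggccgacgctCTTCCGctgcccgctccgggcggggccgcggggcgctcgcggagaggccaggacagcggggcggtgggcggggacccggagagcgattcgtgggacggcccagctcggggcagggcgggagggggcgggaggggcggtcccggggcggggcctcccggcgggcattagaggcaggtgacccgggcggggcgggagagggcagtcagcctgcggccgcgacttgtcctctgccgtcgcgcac
Prom1, chr5:44094719-44095018, minus strand: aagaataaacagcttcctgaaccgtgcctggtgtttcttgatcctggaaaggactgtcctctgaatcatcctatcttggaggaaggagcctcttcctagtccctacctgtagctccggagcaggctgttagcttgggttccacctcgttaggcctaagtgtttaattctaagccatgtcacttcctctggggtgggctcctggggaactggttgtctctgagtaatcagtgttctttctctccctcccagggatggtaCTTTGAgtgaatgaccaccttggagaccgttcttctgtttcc

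Counted reads per library numbered 7421411 to 10344161 (median 8138352), and mitochondrial genes took 10.7% to 26.3% of them. Ehf IKO replicate 2 stood apart, with counts in 36109 genes against 23588 to 25966 in the other 11 libraries, and results were also computed without it. Ehf itself was counted at 309 to 371 CPM in Ehf IKO, 326 to 375 CPM in Control TMX and 385 to 481 CPM in Control OIL; these are sums over the whole gene and do not measure the deletion. The epithelial label fitted the markers, with Epcam at a mean of 1016, 926 and 951 CPM in Ehf IKO, Control TMX and Control OIL and 12 epithelial markers summing to 21485 to 25816, 28823 to 33967 and 18523 to 31201 CPM. The mucin Muc2 made up much of that sum, at a mean of 12271, 20224 and 15782 CPM beside mean sums of 24264, 31348 and 25186 CPM in the same groups, while 9 of the 12 markers were higher in Ehf IKO against Control TMX and 10 against Control OIL. Fibroblast markers summed to 469 to 1107 CPM in Ehf IKO, 479 to 804 CPM in Control TMX and 356 to 477 CPM in Control OIL. T cell markers summed to 25.7 to 35.9, 17.8 to 28.9 and 17.5 to 40.8 CPM in the same groups. Xist was counted at 1449.8 to 2305 CPM in replicates 1 and 2 and at 1.68 to 3.69 CPM in replicates 3 and 4, while the Y-linked gene Ddx3y had 0 reads in the first pair and 45.4 to 52.0 CPM in the second. By these reads each group held 2 female and 2 male mice, and the replicate number followed sex in all groups; with sex as a term, a fit added after seeing the data, edgeR again called Cdca7 alone of the set against Control OIL (adjusted p = 0.0261), where 2.05% of all genes were called.

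Levels are given as CPM, counts relative to a TMM-adjusted library size, and differences as log2 fold changes ± SE from 1 edgeR quasi-likelihood fit of all 12 libraries. A difference was called where its p, adjusted by Benjamini-Hochberg over 15743 genes, was under 0.05. In bulk tissue, fewer cells of a type and less RNA per cell cannot be told apart. Against Control OIL, 1 of the 33 tested genes was called: Cdca7 fell in Ehf IKO, where 1.68% of all genes were called and 0.762% were called lower. DESeq2 called 2 genes, Cdca7 and Ephb2, and limma-voom 1, Cdca7, where they called 3.4% and 1.41% of all genes. Signs were mixed, with 13 of the 33 higher and 20 lower, and the median log2 fold change was -0.05 against -0.01 over all genes tested. Unadjusted p was under 0.05 for 2 genes that were higher (Lrp6 and Fzd5) and 4 that were lower (Cdca7, Ephb2, Rnf43 and Tnfrsf19), where 6.85% and 5.07% of all genes lay on those sides.

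Against Control TMX, edgeR called 0 of the 33 genes, DESeq2 0 and limma-voom 0, where edgeR called 0.8% of all genes, DESeq2 1.94% and limma-voom 0.673%. Here 16 genes were higher and 17 lower in Ehf IKO, with a median log2 fold change of -0.03 against 0.02 over all genes. Unadjusted p was under 0.05 for 3 higher genes (Lgr4, Lgr5 and Lrp6; background 5.6%) and 2 lower ones (Rnf43 and Ephb2; background 6.27%). Against the mean of both controls, edgeR, DESeq2 and limma-voom each called 0 genes, where they called 1.72%, 2.99% and 1.44% of all genes, and 15 were higher and 18 lower. There, unadjusted p was under 0.05 for 3 higher genes (background 6.28%) and 4 lower ones (background 5.32%). These comparisons share the Ehf IKO libraries and are not independent of each other.

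**Figure D1:**
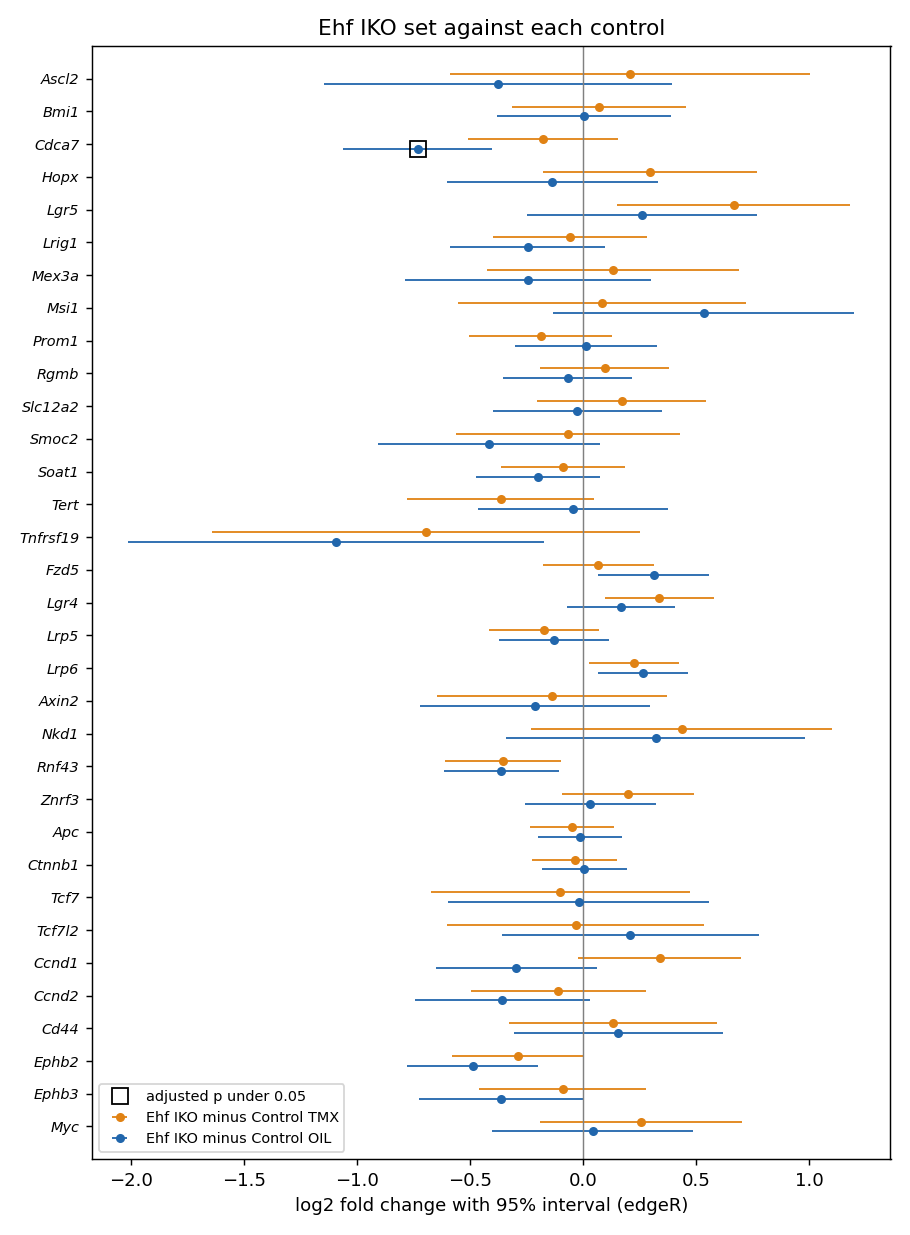
Log2 fold change of Ehf IKO minus Control TMX (orange) and minus Control OIL (blue) for the 33 tested genes, with 95% intervals from edgeR. Only the interval of Cdca7 against Control OIL carries the square that marks an adjusted p under 0.05, and most intervals cross 0.

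Leaving out 1 library changed the count against Control OIL. Without Ehf IKO replicate 4, edgeR called 4 genes lower, Cdca7, Ephb2, Ccnd2 and Ephb3, where 4.41% of all genes were called, and against the mean of both controls it called Cdca7 and Ephb2, where 3.23% were called. The call of Cdca7 was lost, and the count was 0, without any 1 of Ehf IKO replicates 1, 2 and 3 or Control OIL replicates 1 and 3. Without Ehf IKO replicate 2, the library that stood apart, edgeR called 0.812% of all genes. With no filter on low counts, edgeR called Cdca7 and Ephb2 against Control OIL, where 1.76% of 41205 genes were called, and Cdca7, Ephb2 and Rnf43 against the mean of both controls, where 2.02% were called.

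Among the 15 stem cell markers, 4 were higher and 11 lower in Ehf IKO against Control OIL, and 8 were higher and 7 lower against Control TMX. Cdca7, a nuclear protein that Myc activates and that belongs to published Lgr5 stem cell signatures (ENSMUSG00000055612, GRCm38 chromosome 2, 72476159 to 72486893), was counted at 17.5, 18.2, 20.4 and 25.3 CPM in Ehf IKO. It was at 23.3, 23.5, 18.1 and 26.9 CPM in Control TMX and at 41.2, 32.0, 33.1 and 28.8 CPM in Control OIL. Every Ehf IKO library lay below every Control OIL library, while the groups given tamoxifen overlapped. The log2 fold change was -0.73 ± 0.15 against Control OIL (0.602-fold, adjusted p = 0.0248 in edgeR) and -0.18 ± 0.16 against Control TMX (adjusted p = 0.714 in edgeR, 95% interval -0.51 to 0.15). Control TMX against Control OIL gave -0.55 ± 0.15 (adjusted p = 0.183 in edgeR). The adjusted p against Control OIL was 0.0534 with the replicate number as a block, where 1.1% of all genes were called, and 0.0518 in a fit of those groups alone, where 0.74% were called. Over all alternatives run, it lay between 1.85e-04 and 0.0917.

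Lgr5 (ENSMUSG00000020140, chromosome 10, 115450311 to 115587780), the R-spondin receptor that marks crypt base stem cells, was counted at 14.1, 12.4, 13.7 and 23.2 CPM in Ehf IKO. Control TMX had 7.61, 10.1, 7.10 and 14.8 CPM, and Control OIL had 16.5, 11.8, 13.2 and 11.6 CPM. Ehf IKO replicate 4 was the highest of the 12 libraries, and the groups overlapped. The gene averaged 15.9 ± 4.97 CPM in Ehf IKO, 9.90 ± 3.51 CPM in Control TMX and 13.3 ± 2.26 CPM in Control OIL (SD, n = 4 each). Its log2 fold change was 0.66 ± 0.24 against Control TMX (95% interval 0.15 to 1.18, adjusted p = 0.282 in edgeR) and 0.26 ± 0.24 against Control OIL (95% interval -0.25 to 0.77, adjusted p = 0.766 in edgeR).

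Ascl2, a transcription factor that maintains Lgr5-positive cells, was counted at 2.21, 2.07, 2.26 and 5.51 CPM in Ehf IKO, 2.64, 2.35, 1.80 and 3.55 CPM in Control TMX and 6.15, 4.09, 3.18 and 2.37 CPM in Control OIL. Those values rest on 92, 91 and 130 reads per group. Ehf IKO replicate 4 and Control OIL replicate 1 were high for it, and the log2 fold change was -0.37 ± 0.36 against Control OIL and 0.21 ± 0.37 against Control TMX. Without Ehf IKO replicate 4, the sign against Control TMX turned, at -0.25. Hopx, a homeodomain protein that marks slowly cycling cells in the small intestine, had 9.67, 6.90, 7.85 and 12.8 CPM in Ehf IKO, 6.06, 7.17, 7.31 and 9.54 CPM in Control TMX and 13.8, 10.1, 9.30 and 7.90 CPM in Control OIL. Its log2 fold change was 0.29 ± 0.22 against Control TMX and -0.14 ± 0.22 against Control OIL. In the unstranded counts, 27.2% of the exon bases of Hopx overlap Hopxos.

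Prom1, the pentaspan membrane protein CD133, was counted at 377, 360, 285 and 211 CPM in Ehf IKO, 340, 334, 365 and 366 CPM in Control TMX and 330, 284, 279 and 329 CPM in Control OIL. Ehf IKO held both the highest and the lowest library for Prom1, and the log2 fold change was 0.01 ± 0.15 against Control OIL and -0.19 ± 0.15 against Control TMX. Ehf IKO replicate 4, the lowest for Prom1, was the highest of all for Lgr5. Tnfrsf19 (Troy), a Wnt target and membrane receptor of crypt base cells, was low, at 0.815, 2.07, 0.532 and 0.940 CPM in Ehf IKO, 1.09, 1.98, 1.38 and 2.43 CPM in Control TMX and 2.79, 3.43, 1.15 and 1.88 CPM in Control OIL. It varied more between libraries than the other stem cell markers, with a highest level 6.45 times its lowest. It did not pass the test against Control OIL (adjusted p = 0.294 in edgeR).

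The other stem cell markers overlapped between Ehf IKO and both controls, except Tert. Tert, the catalytic subunit of telomerase, ranged over 3.73 to 4.30 CPM in Ehf IKO, 4.39 to 6.80 CPM in Control TMX and 3.77 to 4.76 CPM in Control OIL, so Ehf IKO lay below Control TMX without overlap. Slc12a2, the Na-K-2Cl cotransporter of crypt cells, ranged over 358 to 565 CPM in Ehf IKO, 304 to 501 CPM in Control TMX and 366 to 517 CPM in Control OIL. Smoc2, a secreted matrix protein of Lgr5-positive cells that stromal cells can also express, ranged over 18.9 to 35.3 CPM, 19.3 to 36.8 CPM and 27.8 to 41.4 CPM in the same groups. Lrig1, which restrains growth factor receptors and marks crypt progenitors, ranged over 98.3 to 198 CPM in Ehf IKO, 131 to 167 CPM in Control TMX and 158 to 186 CPM in Control OIL. Bmi1, a Polycomb protein, ranged over 9.78 to 13.7 CPM in Ehf IKO, 7.29 to 12.4 CPM in Control TMX and 9.97 to 13.4 CPM in Control OIL. Soat1 (cholesterol acyltransferase), Rgmb (a BMP coreceptor), Mex3a and Msi1 (RNA-binding proteins) had log2 fold changes between -0.24 and 0.53 against Control OIL and between -0.09 and 0.13 against Control TMX.

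**Figure D2:**
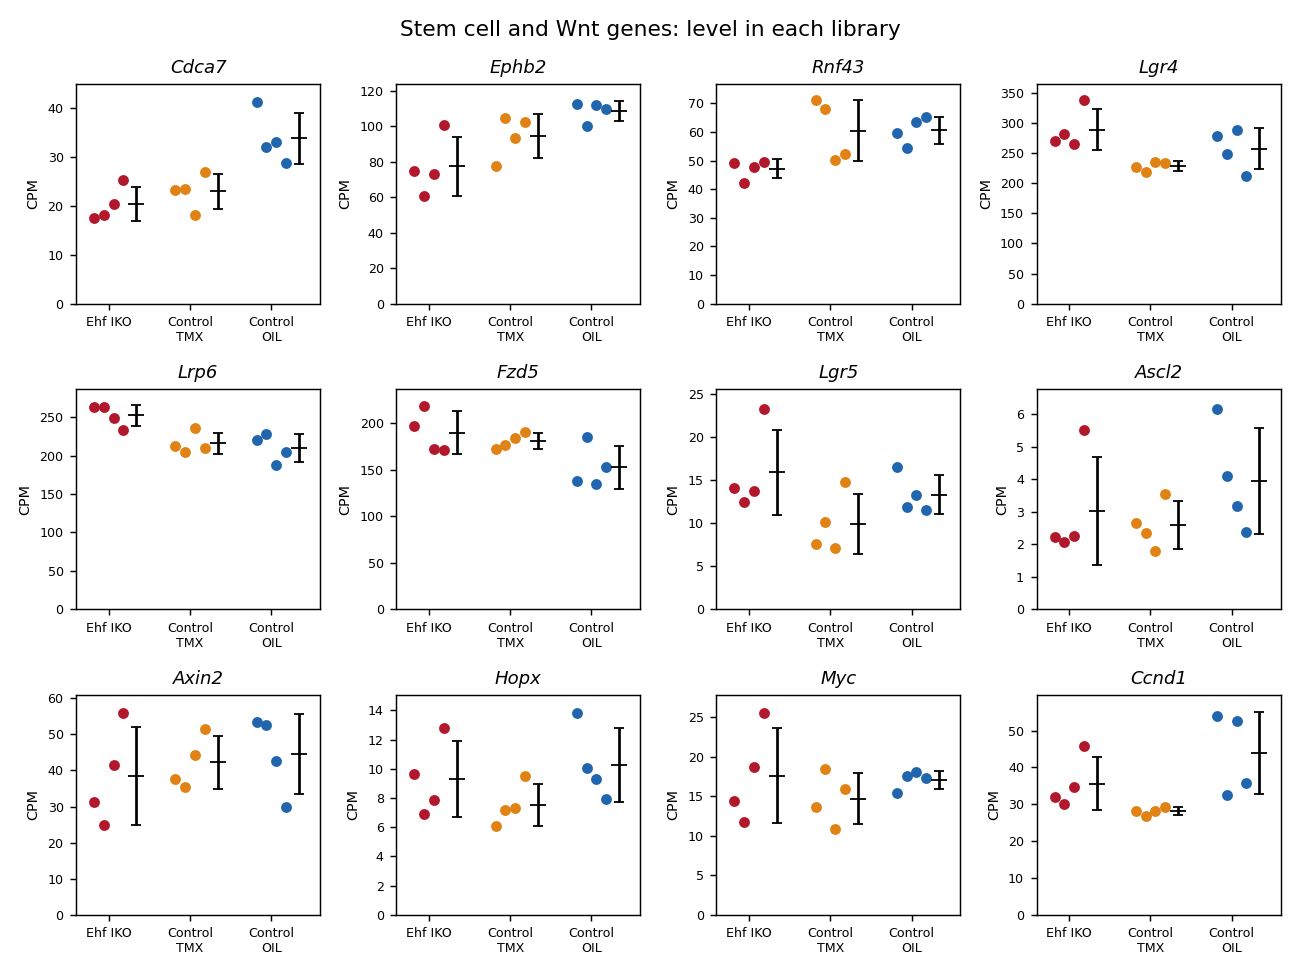
Level (CPM, linear axis from 0) of 12 of the genes in each library; points are replicates 1 to 4 from left to right within a group, and bars are the mean ± SD of 4 libraries. Rnf43 is lower in every Ehf IKO library than in the 8 control libraries, and Cdca7 lies below the Control OIL libraries and overlaps Control TMX. Ehf IKO replicate 4 is the highest point of its group for every gene shown except Lrp6 and Fzd5.

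Of the 4 receptors, Lgr4, Fzd5 and Lrp6 were higher and Lrp5 lower in Ehf IKO in both comparisons, and none was called. Lrp6, the Wnt coreceptor (ENSMUSG00000030201, chromosome 6, 134446476 to 134566965), was counted at 263, 263, 249 and 234 CPM in Ehf IKO, 212, 205, 236 and 210 CPM in Control TMX and 220.3, 228, 187 and 204 CPM in Control OIL. Every Ehf IKO library lay above every Control OIL library, and 1 Control TMX library lay above the lowest Ehf IKO one. Relative to Control OIL the log2 fold change was 0.27 ± 0.09 (adjusted p = 0.216 in edgeR), with 0.22 ± 0.09 against Control TMX (adjusted p = 0.360 in edgeR) and 0.24 ± 0.08 against the mean of both (adjusted p = 0.179 in edgeR).

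Lgr4, the R-spondin receptor found along the whole crypt (ENSMUSG00000050199, chromosome 2, 109917647 to 110014257), had 270.2, 281, 264 and 338 CPM in Ehf IKO. Control TMX had 226, 218, 234 and 234 CPM, and Control OIL had 279, 248, 288 and 212 CPM. All Ehf IKO libraries lay above the Control TMX libraries; replicates 1, 2 and 3 lay among the Control OIL ones and replicate 4 above them. Lgr4 had a log2 fold change of 0.34 ± 0.11 against Control TMX (adjusted p = 0.230 in edgeR) and 0.17 ± 0.11 against Control OIL (adjusted p = 0.640 in edgeR). Fzd5, a Frizzled receptor of the epithelium (ENSMUSG00000045005, chromosome 1, 64730558 to 64737751), had 197, 219, 172 and 171 CPM in Ehf IKO, 172, 177, 184 and 191 CPM in Control TMX and 138.2, 185, 134.9 and 152 CPM in Control OIL. Fzd5 libraries of both groups given tamoxifen overlapped, with a log2 fold change of 0.07 ± 0.12 against Control TMX (95% interval -0.18 to 0.31) and 0.31 ± 0.12 against Control OIL (adjusted p = 0.242 in edgeR). In the unstranded counts, 17.8% of the exon bases of Fzd5 overlap Gm38058. Lrp5 ranged over 74.1 to 115 CPM in Ehf IKO, 102 to 115 CPM in Control TMX and 99.2 to 110.2 CPM in Control OIL.

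Of the feedback inhibitors, 4 were tested, with 2 higher and 2 lower in Ehf IKO in each comparison and none called. Rnf43, the ubiquitin ligase that removes Frizzled receptors (ENSMUSG00000034177, chromosome 11, 87662722 to 87735539), was counted at 49.3, 42.2, 47.6 and 49.4 CPM in Ehf IKO. It was at 71.0, 68.1, 50.1 and 52.4 CPM in Control TMX and 59.5, 54.4, 63.3 and 65.1 CPM in Control OIL. All 4 Ehf IKO libraries lay below all 8 control libraries, and Rnf43 was the 1 gene of the 33 to do so; 1.23% of all genes lay below in this way and 1.17% above, where the set had 0. The nearest control library, Control TMX replicate 3, was close, at 50.1 CPM. For Rnf43 the log2 fold change was -0.36 ± 0.12 against Control OIL (adjusted p = 0.174 in edgeR), -0.35 ± 0.12 against Control TMX (adjusted p = 0.238 in edgeR) and -0.36 ± 0.11 against the mean of both (adjusted p = 0.116 in edgeR, 95% interval -0.58 to -0.13).

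Against Control OIL alone, the Ehf IKO libraries lay without overlap above for Lrp6 and below for Cdca7 and Rnf43, where 3.25% and 3.29% of all genes did so. Against Control TMX alone they lay above for Lgr4 and Ccnd1 and below for Tert and Rnf43, where 3.32% and 3.87% of all genes did so. Axin2, a scaffold of the destruction complex and a standard readout of Wnt activity, had 31.3, 25.0, 41.6 and 56.0 CPM in Ehf IKO, 37.7, 35.3, 44.3 and 51.6 CPM in Control TMX and 53.5, 52.6, 42.7 and 29.8 CPM in Control OIL. Ehf IKO held both the highest and the lowest library for Axin2. Its log2 fold change was -0.21 ± 0.24 against Control OIL (95% interval -0.72 to 0.30) and -0.14 ± 0.24 against Control TMX (95% interval -0.65 to 0.37). Znrf3, the paralogue of Rnf43, ranged over 14.5 to 19.3 CPM in Ehf IKO, 11.5 to 16.0 CPM in Control TMX and 14.0 to 16.8 CPM in Control OIL, overlapping both controls. Nkd1, which binds Dishevelled, ranged over 2.00 to 2.76 CPM, 1.48 to 2.17 CPM and 1.09 to 3.21 CPM in the same groups. Notum, a secreted enzyme that inactivates Wnt ligands, had 13 reads in Ehf IKO, 4 in Control TMX and 5 in Control OIL, summed over 4 libraries each, and was not tested.

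β-Catenin and Apc varied least between libraries of the 36 genes. Ctnnb1, which encodes β-catenin, was counted at 522, 518, 523 and 511 CPM in Ehf IKO, 529, 493, 545 and 560 CPM in Control TMX and 539, 539, 504 and 485 CPM in Control OIL. All Ehf IKO libraries lay inside the range of each control group. Its log2 fold change was 0.00 ± 0.09 against Control OIL (95% interval -0.18 to 0.19) and -0.04 ± 0.09 against Control TMX (95% interval -0.22 to 0.15). In the unstranded counts, 14.6% of the exon bases of Ctnnb1 overlap Ulk4. Apc, whose product binds β-catenin in the destruction complex, ranged over 156 to 183 CPM in Ehf IKO, 168 to 182 CPM in Control TMX and 165 to 180.2 CPM in Control OIL. The highest library was 1.17 times the lowest for Apc and 1.16 times for Ctnnb1.

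Among the nuclear factors, Tcf7l2, the main TCF factor of the gut epithelium, ranged over 103 to 214 CPM in Ehf IKO, 122 to 227 CPM in Control TMX and 96.8 to 202 CPM in Control OIL. The spread within each group was about as wide as the whole range, and Tcf7l2 was not called. Tcf7 ranged over 1.73 to 4.30 CPM in Ehf IKO, 3.11 to 3.46 CPM in Control TMX and 2.27 to 3.91 CPM in Control OIL. Lef1 had 21, 26 and 19 reads in Ehf IKO, Control TMX and Control OIL and was not tested. T cells also express Tcf7 and Lef1, and T cell markers were present at the low sums given above; their part in these counts was not tested.

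Of the other Wnt targets, 6 were tested, and none was called in either comparison; 2 were higher and 4 lower against Control OIL, and 3 were higher and 3 lower against Control TMX. Ephb2, a receptor that positions cells along the crypt (ENSMUSG00000028664, chromosome 4, 136647539 to 136835988), was counted at 74.7, 60.7, 73.2 and 100.7 CPM in Ehf IKO. Control TMX had 77.5, 105, 93.4 and 102 CPM, and Control OIL had 112.3, 99.9, 111.7 and 109.7 CPM. Ehf IKO replicates 1, 2 and 3 lay below all 8 control libraries, and replicate 4 lay among them. Ephb2 had a log2 fold change of -0.49 ± 0.14 against Control OIL (adjusted p = 0.0923 in edgeR) and -0.29 ± 0.14 against Control TMX (adjusted p = 0.421 in edgeR). DESeq2 called Ephb2 lower against Control OIL (adjusted p = 0.0400), and without Ehf IKO replicate 4 edgeR did so at -0.64 (adjusted p = 0.00648). Ephb3, its paralogue, ranged over 26.2 to 49.97 CPM in Ehf IKO, 28.6 to 42.6 CPM in Control TMX and 42.1 to 50.4 CPM in Control OIL.

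Ccnd1, the G1 cyclin D1, was counted at 31.9, 29.9, 34.7 and 45.9 CPM in Ehf IKO, 28.3, 26.9, 28.1 and 29.4 CPM in Control TMX and 54.1, 32.6, 52.7 and 35.8 CPM in Control OIL. Ehf IKO thus lay just above Control TMX without overlap and overlapped Control OIL, with log2 fold changes of 0.34 ± 0.17 (adjusted p = 0.455 in edgeR) and -0.30 ± 0.17 (adjusted p = 0.544 in edgeR). In the unstranded counts, 23.4% of the exon bases of Ccnd1 overlap LTO1. Myc, a transcription factor of proliferating cells, had 14.4, 11.7, 18.6 and 25.5 CPM in Ehf IKO, 13.7, 18.4, 10.8 and 15.9 CPM in Control TMX and 15.4, 17.5, 18.1 and 17.3 CPM in Control OIL. Its log2 fold change was 0.26 ± 0.21 against Control TMX and 0.04 ± 0.21 against Control OIL, and it overlapped both. Ccnd2, cyclin D2, ranged over 78.3 to 164 CPM in Ehf IKO, 114 to 136 CPM in Control TMX and 122 to 169 CPM in Control OIL. Cd44, a hyaluronan receptor, ranged over 44.7 to 59.5 CPM in Ehf IKO, 34.5 to 65.5 CPM in Control TMX and 34.4 to 68.0 CPM in Control OIL. Sp5, a zinc finger factor, had 5 reads in Ehf IKO, 15 in Control TMX and 9 in Control OIL and was not tested.

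**Figure D3:**
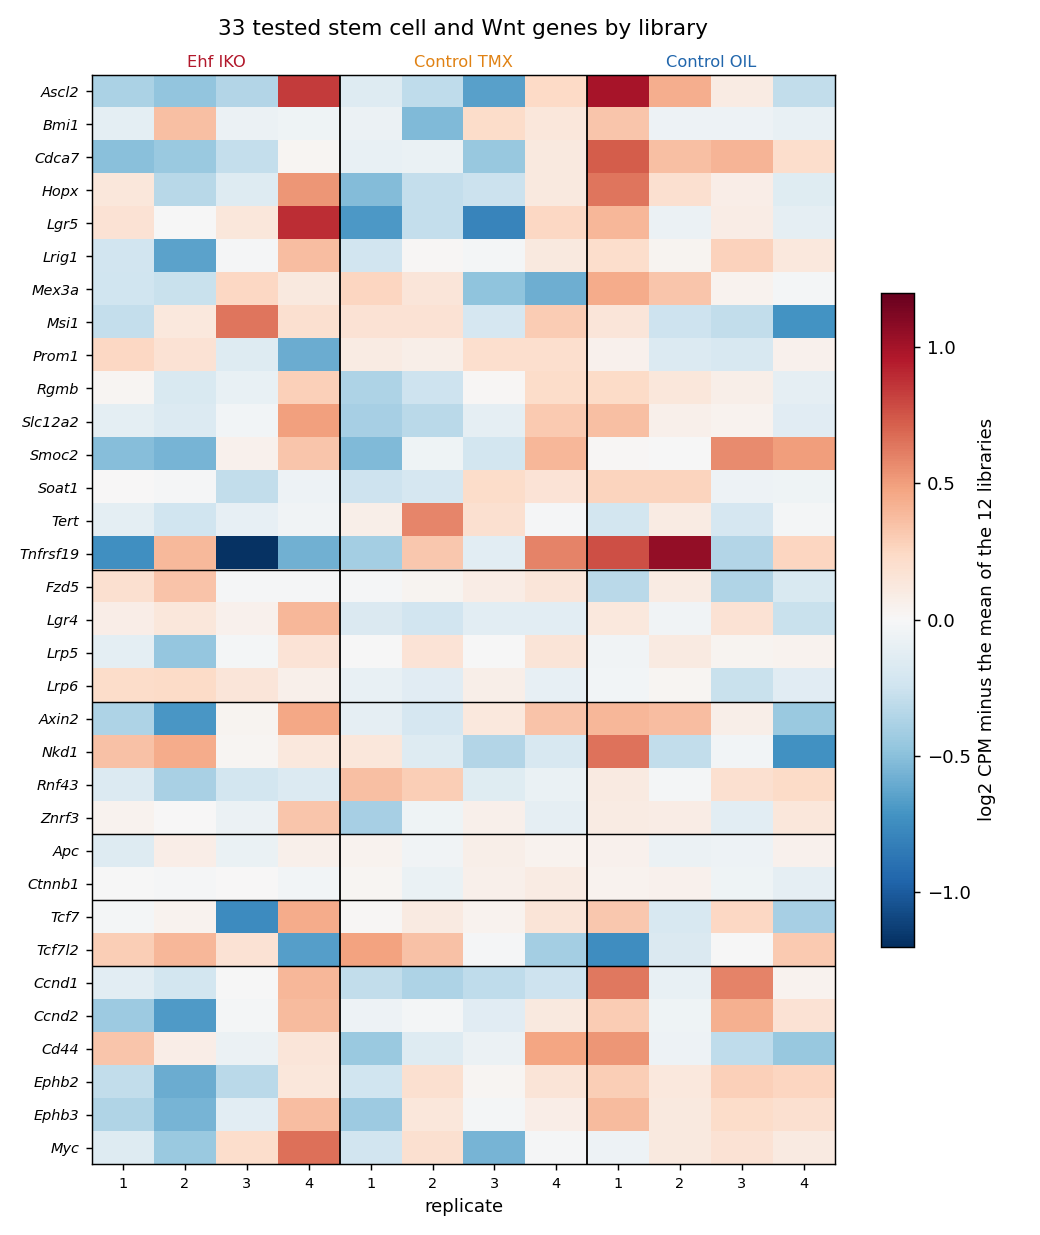
Level of the 33 tested genes in each library as log2 CPM minus the mean of the 12 libraries, with genes ordered by role and red for high. Columns differ within groups: Ehf IKO replicate 4 and Control OIL replicate 1 are red for many genes, and Ehf IKO replicate 2 is blue for many.

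Libraries of 1 group differed from each other across many of the genes at once. Of the 33 tested genes, 10 had their highest level in Ehf IKO replicate 4 and 9 in Control OIL replicate 1, while 9 had their lowest in Ehf IKO replicate 2. The mean centred log2 CPM of the 15 stem cell markers was -0.18, -0.15, -0.11 and 0.18 in Ehf IKO, -0.21, -0.07, -0.16 and 0.17 in Control TMX and 0.36, 0.16, 0.03 and -0.04 in Control OIL. The same mean over the 6 other Wnt targets was -0.17, -0.40, -0.06 and 0.35 in Ehf IKO, against a range of -0.29 to 0.10 in Control TMX and 0.03 to 0.35 in Control OIL. Ehf IKO replicate 4 was above the other Ehf IKO libraries in both sets. It lay within the range of the controls for the stem cell markers, and for the other Wnt targets it was the highest of the 12 libraries, just above Control OIL replicate 1.

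A list of 20 proliferation genes was also highest of all in Ehf IKO replicate 4. Its mean centred log2 CPM was -0.09, -0.16, 0.14 and 0.48 in Ehf IKO, -0.83, -0.64, -0.02 and 0.28 in Control TMX and 0.26, 0.22, 0.27 and 0.11 in Control OIL. The summed level of that list was 945 to 1463 CPM in Ehf IKO, 573 to 1225 CPM in Control TMX and 1064 to 1191 CPM in Control OIL. Fibroblast markers were at a mean centred log2 CPM of 0.43, -0.13, 0.63 and 0.04 in Ehf IKO, 0.27, -0.31, 0.10 and 0.23 in Control TMX and -0.21, -0.41, -0.20 and -0.46 in Control OIL. The part of proliferation and of fibroblast RNA in the values of the stem cell and Wnt genes was not tested.

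**Figure D4:**
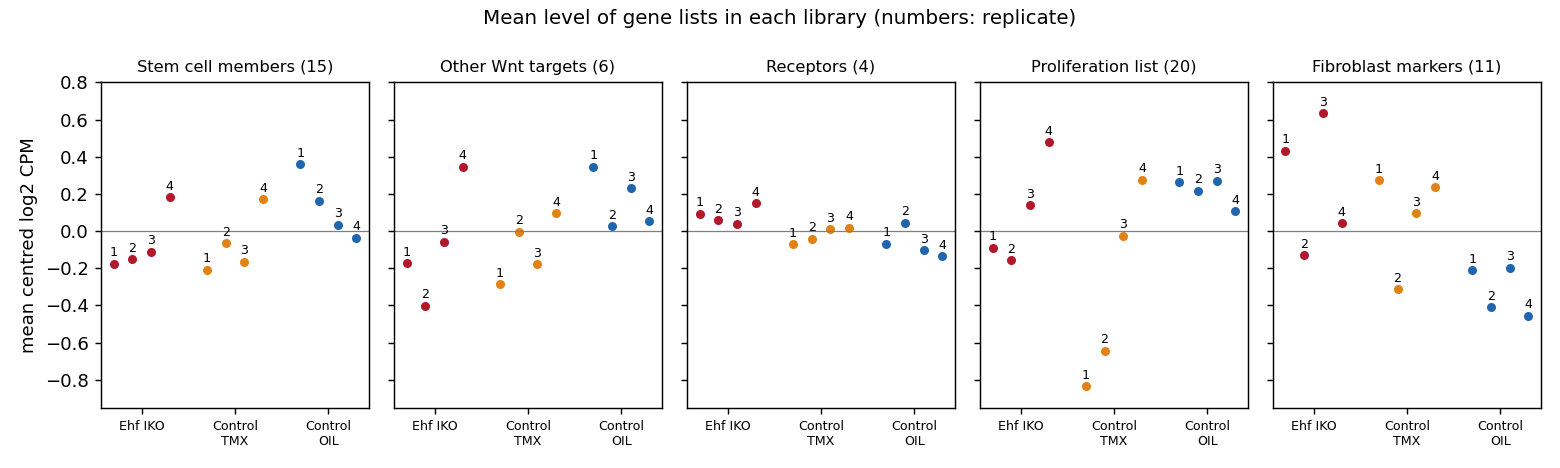
Mean centred log2 CPM in each library (numbers are replicates) for stem cell markers, other Wnt targets, receptors, a proliferation list and fibroblast markers. Ehf IKO replicate 4 is the highest Ehf IKO library in the first 4 panels, and all Control OIL libraries are below 0 for fibroblast markers.

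Levels between genes were compared per kilobase of exon. Ctnnb1 was the highest of the 36 genes, at 100.6 CPM per kilobase over the 12 libraries, followed by Prom1 at 44.8, Lgr4 at 43.8, Slc12a2 at 37.4, Lrig1 at 27.9 and Fzd5 at 25.2. The R-spondin receptor Lgr5 stood far lower, at 1.27 CPM per kilobase, than its paralogue Lgr4. Ascl2 was at 1.96 and Axin2 at 7.59 CPM per kilobase, and the 3 genes that were not tested were lowest, Sp5 at 0.132, Notum at 0.0938 and Lef1 at 0.0737. Prom1 and Lgr4, neighbours in that order, changed places between groups, at 43.0, 48.9 and 42.6 CPM per kilobase for Prom1 and 49.0, 38.8 and 43.6 for Lgr4 in Ehf IKO, Control TMX and Control OIL.

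**Figure D5:**
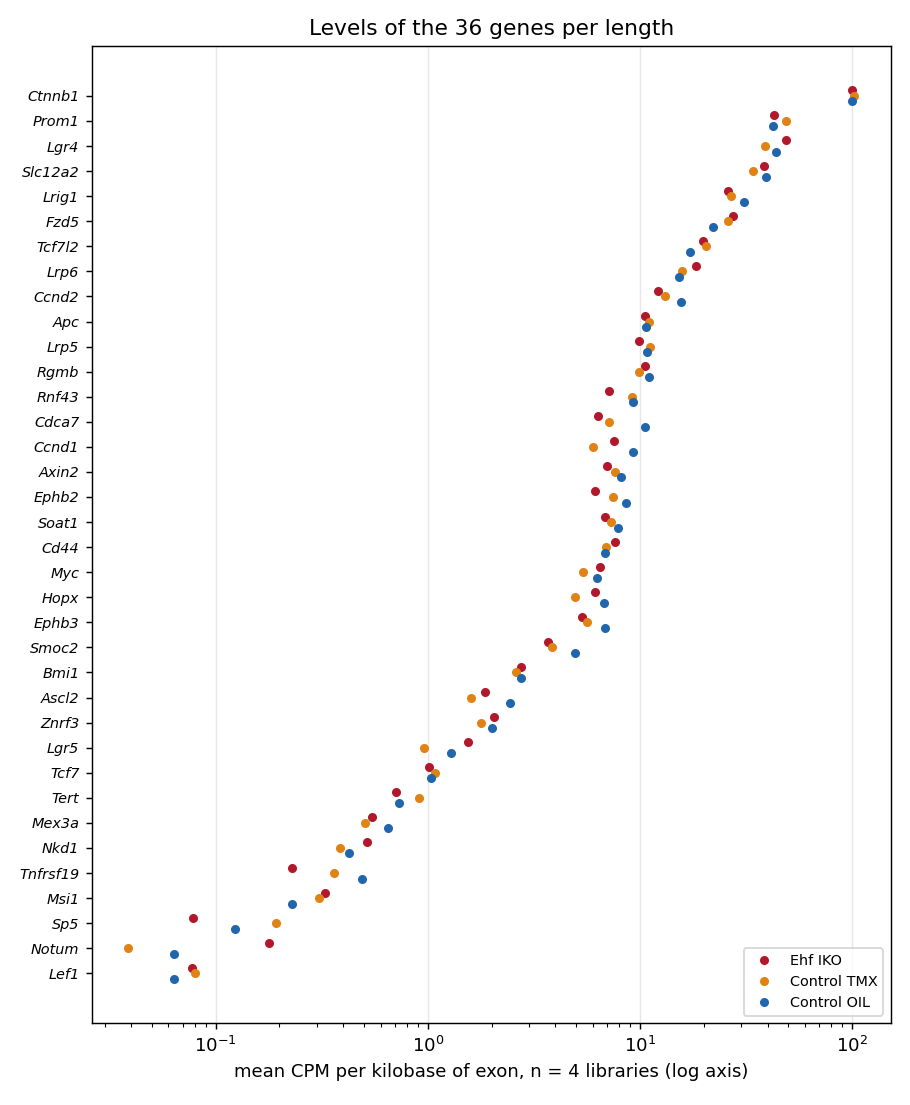
Mean level per kilobase of exon (CPM per kilobase, log axis) of the 36 genes in each group of 4 libraries, ordered by the mean of all 12. Levels run from 0.0737 for Lef1 to 100.6 for Ctnnb1, and for most genes the groups lie close together beside the differences between genes.

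The controls were also set against each other. For Control TMX against Control OIL, edgeR called 0 of the 33 genes, limma-voom 0 and DESeq2 1, Ccnd1, where they called 0.0826%, 0.0508% and 1.48% of all genes. With no filter, edgeR called Cdca7 and Ccnd1, where 1.07% of all genes were called. Of the 33, 11 were higher and 22 lower in Control TMX, with a median log2 fold change of -0.16 against -0.01 over all genes. Unadjusted p was under 0.05 for 0 higher and 2 lower genes, Cdca7 and Ccnd1, where 6.65% and 6.23% of all genes lay on those sides, so that neither count was above the background share. The log2 fold change of Ccnd1 was -0.63 ± 0.17 (adjusted p = 0.175 in edgeR). Of the 20 proliferation genes, 18 were lower in Control TMX than in Control OIL, with a median of -0.47; edgeR, DESeq2 and limma-voom called 0, and 9 lower genes had an unadjusted p under 0.05. Against Control TMX, 19 of the 20 were higher in Ehf IKO, with a median of 0.34. The same tools called 0, and unadjusted p was under 0.05 for 1 higher and 1 lower gene, the lower being the mitotic kinase Plk1. Control TMX replicates 1 and 2 were low for this list, at a mean centred log2 CPM of -0.83 and -0.64. Replicates 3 and 4 were at -0.02 and 0.28, beside 0.11 to 0.27 in Control OIL.

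Wnt pathway genes outside the set were counted by list. Of the lists of Wnt and R-spondin ligands (7 tested of 23), inhibitors (5 of 14), destruction complex genes (10 of 10), nuclear factors (13 of 14) and further genes of the Lgr5 signature (12 of 16), edgeR called 0 against either control. The ligand list also held Porcn and Wls, which are not ligands. Against Control OIL, unadjusted p was under 0.05 for 1, 0, 0, 1 and 3 genes of those lists in the same order, and against Control TMX for 1, 1, 0, 3 and 1, beside the shares of all genes given above (6.85% higher and 5.07% lower, and 5.6% and 6.27%). DESeq2 called 1 gene of these lists, Tle3 against Control TMX, where it called 1.94% of all genes, and 0 against Control OIL (3.4%). The limma-voom fit called 0 against Control TMX (0.673%) and 0 against Control OIL (1.41%).

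A further list held receptors of the pathway together with the Dishevelled genes, and 14 of its 16 genes were tested. Of these, edgeR called 1 against Control OIL, where 1.68% of all genes were called, and 0 against Control TMX (0.8%). Against Control OIL, 5 were higher and 9 lower, with unadjusted p under 0.05 for 0 higher (background 6.85%) and 4 lower genes (background 5.07%). Against Control TMX, 3 were higher and 11 lower, with unadjusted p under 0.05 for 0 higher (background 5.6%) and 3 lower genes (background 6.27%). Fzd9, a Frizzled receptor, had 2, 6, 2 and 2 reads in the Ehf IKO libraries, 6, 8, 13 and 15 in Control TMX and 18, 14, 6 and 21 in Control OIL. Fzd9 passed the filter on low counts only through control libraries, where it was higher. It was not tested in a fit of Ehf IKO and Control OIL alone. In the fit of all libraries it was called lower against Control OIL (log2 fold change -2.10 ± 0.47, adjusted p = 0.0346 in edgeR). It did not pass against Control TMX (-1.58 ± 0.49, adjusted p = 0.196 in edgeR). The call rested on few reads and was lost without Ehf IKO replicates 1 or 3, Control TMX replicate 3 or Control OIL replicates 1, 2 or 4, with adjusted p up to 0.131. Also losing the call were the replicate block (adjusted p = 0.0847 in edgeR) and limma-voom (adjusted p = 0.0533). Against the mean of both controls edgeR called Fzd9 as well (-1.84 ± 0.44, adjusted p = 0.0468), with adjusted p up to 0.183 with a library left out. Fzd1, another Frizzled receptor, had 18.1, 15.6, 17.96 and 27.3 CPM in Ehf IKO, 24.5, 27.3, 25.5 and 27.9 CPM in Control TMX and 25.8, 32.8, 29.2 and 27.5 CPM in Control OIL. As with Ephb2, Ehf IKO replicates 1, 2 and 3 lay below all 8 control libraries and replicate 4 did not. The log2 fold change of Fzd1 against Control OIL was -0.55 ± 0.15 (adjusted p = 0.0880 in edgeR). DESeq2 called Fzd1 there (adjusted p = 0.0329) along with Fzd9, Fzd3 and Ror1, where it called 3.4% of all genes. Against the mean of both controls DESeq2 called Fzd1, Fzd3 and Fzd9, where it called 2.99%. Against Control TMX it called 0 genes of this list, and limma-voom called 0 in each comparison.

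Wnt5a, a ligand of the noncanonical Wnt pathway made mainly by mesenchymal cells, had 5.24, 5.52, 6.52 and 4.57 CPM in Ehf IKO, 3.11, 2.84, 4.13 and 4.21 CPM in Control TMX and 3.21, 4.32, 3.69 and 3.06 CPM in Control OIL. All Ehf IKO libraries lay above the 8 control libraries, as they did for 1.17% of all genes. Wnt5a was named for a small p in its list, a choice that favours such a separation. Its log2 fold change was 0.60 ± 0.21 against Control TMX (adjusted p = 0.259 in edgeR) and 0.61 ± 0.21 against Control OIL (adjusted p = 0.196 in edgeR). Of 11 tested fibroblast markers, 10 were higher and 1 lower in Ehf IKO against each control. Col3a1 and Col1a2 rose against Control OIL (1.05 ± 0.22 and 1.10 ± 0.25, adjusted p = 0.0318 and 0.0445 in edgeR). Their means were 281 and 160.0 CPM in Ehf IKO, 225 and 126 CPM in Control TMX and 136 and 74.7 CPM in Control OIL. The lower gene was Pdgfrb, at a mean of 9.62, 12.6 and 12.1 CPM in the same groups. edgeR called 1.68% of all genes against Control OIL. Against Control TMX it called 0 of the markers (smallest adjusted p = 0.329) and 0.8% of all genes. Against Control OIL, limma-voom called Col1a1 and Col3a1, where it called 1.41% of all genes, and DESeq2 called 4 markers (3.4%). The part of fibroblast RNA in the level of Wnt5a was not tested.

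Tle3, a Groucho-type corepressor that TCF factors bind, had 72.2, 58.7, 70.9 and 62.3 CPM in Ehf IKO, 137.5, 108, 83.5 and 79.2 CPM in Control TMX and 76.7, 87.0, 74.9 and 78.2 CPM in Control OIL. Every Ehf IKO library lay below the 8 control libraries, as for 1.23% of all genes, and Control TMX replicates 1 and 2 were high. Like Wnt5a, Tle3 and Mecom were named for a small p in their lists. Against Control TMX the log2 fold change of Tle3 was -0.62 ± 0.15 (adjusted p = 0.0670 in edgeR, 0.0127 in DESeq2). Mecom, a zinc finger factor of the Lgr5 signature, ranged over 121 to 125 CPM in Ehf IKO, 137.6 to 154 CPM in Control TMX and 126 to 159.96 CPM in Control OIL, again below all 8 control libraries. For Mecom the log2 fold change was -0.22 ± 0.09 against Control TMX and -0.23 ± 0.09 against Control OIL (adjusted p = 0.351 and 0.281 in edgeR). Of the 12 epithelial markers, edgeR called 1 against Control OIL, where it called 1.68% of all genes, and 0 against Control TMX (0.8%). Krt20, a keratin of differentiated surface cells, rose in Ehf IKO against Control OIL (0.71 ± 0.17, adjusted p = 0.0438 in edgeR). Its mean was 766, 638 and 469 CPM in Ehf IKO, Control TMX and Control OIL. Control TMX against Control OIL gave 0.44 ± 0.17 for Krt20 (adjusted p = 0.303 in edgeR). Ehf IKO replicate 4 was the lowest of the 4 Ehf IKO libraries for Krt20, at 470.1 CPM beside 798 to 928 CPM in the others. Against Control OIL, DESeq2 called Krt20 and Vil1 higher, where it called 3.4% of all genes, and limma-voom called 0 of the 12. Muc2, the main secreted mucin of goblet cells, had a log2 fold change of -0.72 ± 0.18 against Control TMX (adjusted p = 0.0823 in edgeR, 0.00625 in DESeq2) and -0.54 ± 0.16 against the mean of both controls (adjusted p = 0.115 in edgeR, 0.0218 in DESeq2). Cdx1, a homeodomain factor of the intestinal epithelium, was at a mean of 128.9, 191 and 179 CPM in Ehf IKO, Control TMX and Control OIL, with -0.57 ± 0.21 against Control TMX (adjusted p = 0.315 in edgeR).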

How the data were processed

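RNA from 12 libraries of colonic epithelium was used, 4 per group as labelled, and the labels give each library its own source name. The authors deposited raw read counts for each gene symbol, which featureCounts 1.6.1 (Subread) produced from Ensembl GRCm38 release 98, per the file headers. Exons were summed by gene name with the strand setting at 0, and reads in several places or genes were left out. The reads were aligned with STAR, per the submitters' processing notes, with the version not given in the sources used here.

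Differences were fitted in R 4.3.3 with edgeR 4.0.16: TMM factors, filterByExpr by group, and 1 quasi-likelihood fit of 12 libraries (legacy and robust, 9 residual degrees of freedom, common biological coefficient of variation 18.3%). The threshold was a Benjamini-Hochberg adjusted p of 0.05 over 15743 genes. An SE is the size of the log2 fold change divided by the square root of its F statistic, and intervals are 95%. The fit was also run on simulated counts whose changes were larger than most differences given here. That run does not bear on small differences. Mean centred log2 CPM used a pseudocount of 0.25 CPM. Replicate libraries differed beyond sampling noise (mean chi-square per gene at least 9.79).

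Alternatives were DESeq2 size factors, other filters, DESeq2 1.42.0, limma-voom (limma 3.58.1), no robust setting, only the compared groups, a replicate block, each library left out and, chosen after seeing the data, sex as a term. Values in every library are given for genes called, the 5 smallest p per comparison, genes without overlap with the 8 controls, the 3 highest per length, and Lgr5, Ascl2, Axin2, Myc and Ccnd1; Tnfrsf19 falls outside this rule and was chosen after its values were seen. The genes and lists were chosen with earlier results of these data known. Counts do not separate isoforms. Reads on exon bases shared with another gene were left out, while levels per kilobase used the full exon length.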

Additional observations from a re-analysis of the deposited data

Results flagged for a closer look

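Of 108 groups of 4 libraries tested for a library far from the other 3, 9 were picked out, where chance picks about 5.0%. In Ehf IKO, replicate 4 was high for Lgr5 (23.2 CPM), Ascl2 (5.51 CPM), Slc12a2 (565 CPM) and Sp5 (0.269 CPM), and replicate 2 was high for Bmi1 (13.7 CPM). In Control TMX, replicate 4 was high for Sp5 (0.748 CPM) and Notum (0.374 CPM). In Control OIL, replicate 1 was high for Bmi1 (13.4 CPM) and Notum (0.279 CPM). The values of Sp5 and Notum rest on a few reads each.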

How the results depend on the processing

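The number of the 33 genes called in Ehf IKO against Control OIL was 1 as reported, 2 with no filter and 2 with DESeq2, 0 with only the compared groups and 0 with the replicate block, and 0 to 4 with each library left out. Against the mean of both controls it was 0 as reported, 3 with no filter and 0 to 2 with each library left out. Between Control TMX and Control OIL it was 0 as reported, 2 with no filter and 1 with DESeq2. Against Control TMX it was 0 in every alternative run. Deviations of log2 CPM from the group means correlated above 0.1 in 5 of 12 pairs of same-numbered libraries (from -0.41 to 0.4). By these deviations, 5 of 12 libraries correlated best with their own number, so the numbers were not taken to pair the libraries. Replicates 1 and 2 were female and 3 and 4 male by their Xist and Ddx3y reads, so the replicate block also takes up sex; with sex alone as a term, added after seeing the data, the counts were 1, 0, 0 and 0, as reported. Another scaling moved the median of all genes by at most 0.003.

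Of 850 log2 fold changes recomputed for the 14 genes given library by library under the naming rule and for Fzd9, 792 kept their direction and their side of the threshold, 28 no longer passed it, 11 newly passed it and 19 turned sign. With no filter, Ctnnb1 was at -0.024 and Prom1 at -0.024 against Control OIL; with limma-voom, Prom1 was at -0.020 and Myc at -0.021; with the replicate block, Prom1 was at -0.0036; with sex as a term, Prom1 was at -0.0026.
With each library left out, log2 fold changes against Control OIL spanned: Hopx -0.33 to 0.033, Ctnnb1 -0.023 to 0.030, Prom1 -0.10 to 0.15, Myc -0.20 to 0.19; and against Control TMX: Fzd5 -0.0080 to 0.11, Ascl2 -0.25 to 0.42, Axin2 -0.38 to 0.021. The cause was not tested. At these depths, Notum, Lef1 and Sp5 had too few reads for a difference to be resolved.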
